A study of Homo sapiens with 5 samples.

Results

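The translation elongation and termination factors described here are the mRNAs of 10 listed genes, namely *EEF1A1*, *EEF1B2*, *EEF1D*, *EEF1G*, *EEF1E1*, *EEF2*, *ETF1*, *GSPT1*, *TPT1*, and *NACA*. They were taken by gene name from a table of 27328 Ensembl genes, and 9 of the 10 were analysed, since *EEF1G* was not analysed here. All 9 passed the filter on low counts and were tested. The samples were TF-1 cells, a human AML cell line that grows in the presence of GM-CSF. The control group consisted of 2 pools of single-cell clones transduced with *Cas9* and an sgRNA against the *renilla luciferase* gene. The knockout group consisted of 3 pools, made with sgMTSS1_1, sgMTSS1_2, and sgMTSS1_3, so that each knockout replicate carried its own sgRNA against *MTSS1*. Every pool combined 4 clones, all pools carried the lentiviral *Cas9* vector, and a replicate is a pool and not a clone. In such pools, fewer cells carrying an mRNA and less of it per cell cannot be told apart.

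Libraries held between 2849979 and 8854899 counts, and each of the 3 knockout libraries was deeper than both control libraries. Depth and group therefore cannot be told apart. Levels are given as CPM, counts scaled to the size of the library and corrected for its composition by TMM, and 3 counts correspond to 0.389 to 0.938 CPM. Reads came from the 3′ ends of transcripts, so levels do not depend on transcript length. Mitochondrially encoded genes took 13.9% of counts in control pool 1, against 6.71% to 8.63% in the other libraries, and the part of this difference in the values of that pool was not tested. *MTSS1* mRNA overlapped between the groups (log2-fold change −0.58, adjusted p = 0.494), but 3′ reads lie far from the first exon, where sgMTSS1_1 and sgMTSS1_2 cut, and do not check the labels. All 10 TF-1 markers examined, among them *CD34*, *CD33*, *KIT*, and *GATA1*, had counts in each of the 5 libraries. Of 7 markers of other cell types, 5 had group means under 2 CPM. Among the others, *PECAM1*, which myeloid progenitors also carry, was at 116 to 238 CPM.

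In translation elongation, eEF1A brings each aminoacyl-tRNA to the ribosome as a complex with GTP, and the eEF1B subunits exchange the spent GDP for GTP so that eEF1A can be used again. eEF2 then moves the ribosome along the mRNA by one codon, and at a stop codon eRF1 (*ETF1*) and the GTPase eRF3a (*GSPT1*) release the finished protein. *TPT1* encodes TCTP, an abundant protein that binds elongation factors, and *NACA* encodes the alpha subunit of the nascent polypeptide-associated complex, which contacts new chains as they leave the ribosome. Many mRNAs of this machinery begin with a 5′ terminal oligopyrimidine tract (5′ TOP), through which mTOR signaling is known to control their translation.

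Transcript starts in RefSeq (GRCh38.p14) were examined for 8 of the 9 genes, and no start of *EEF1D* was examined here. The starts are shown because they divide the 8 genes into those with a 5′ TOP and those without. Each sequence below runs from 10 bases before the start to base 20 of the transcript, on the strand that reads as the transcript. Capitals mark the tract, defined as a C at the first base followed by at least 4 pyrimidines on that strand.
EEF1A1, chr6:73521013-73521042, minus strand: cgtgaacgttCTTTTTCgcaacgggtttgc
EEF1B2, second start, chr2:206159885-206159914, plus strand: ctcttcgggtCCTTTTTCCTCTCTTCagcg
EEF2, chr19:3985444-3985473, minus strand: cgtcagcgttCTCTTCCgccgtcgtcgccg
TPT1, chr13:45341164-45341193, minus strand: ctgagtcggcCTTTTCCgcccgctcccccc
NACA, chr12:56725280-56725309, minus strand: ctcgctcggtCTTTCTgccgccatcttggt
EEF1E1, chr6:8102529-8102558, minus strand: tgcaggtctcgcgtctgccaggagctacgg
ETF1, first start, chr5:138543217-138543246, minus strand: aggaagtgatgtcacaggccccatgtgagc
GSPT1, second start, chr16:11915937-11915966, minus strand: gaggagatccgctcacacacacgaggagga
Of the 8 genes, 5 had a start with the tract, which occurs in 4.07% of all 35116 starts of the RefSeq table. Counted by gene, 754 of the 14391 tested genes had at least 1 such start. *EEF1B2*, *ETF1*, and *GSPT1* have 2 listed starts each, and the remaining start of *EEF1B2* has no tract, as neither start of *ETF1* or *GSPT1* does.

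A single mRNA of the 9 passed the test. *NACA* rose 3.56-fold in the knockout and was differentially expressed, whereas the levels of *EEF1B2*, *EEF1E1*, and *TPT1* were higher and those of *EEF1A1*, *EEF1D*, and *GSPT1* lower without overlap of the groups and without passing the test. *EEF2* and *ETF1* overlapped between the groups. Differentially expressed means an adjusted p-value under 0.05 after correction over all 14391 tested genes, together with a log2-fold change of more than 1 in size. By this rule 1 of the 9 genes was higher, where 4.17% of all tested genes were, and 0 were lower, where 1.01% of all tested genes were (5.18% in either direction, and the same percentages by the adjusted p-value alone). With edgeR's unadjusted p-values under 0.05, 3 of the 9 were higher (14.1% of all tested genes) and 3 lower (9.23%). DESeq2 called 2 higher (7.02% of all tested genes) and 1 lower (2.31%), and limma-voom called 1 higher (3.54%) and 0 lower (0.862%). The knockout pools lay above both control pools for 4 genes and below for 3, against 22.2% and 19.2% of all tested genes. The 9 genes had a median log2-fold change of −0.07, and all tested genes one of −0.03. By mean level over all tested genes, they ranged from the 51.5 percentile (*EEF1D*) to the 99.8 percentile (*EEF2*).

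**Figure D1:**
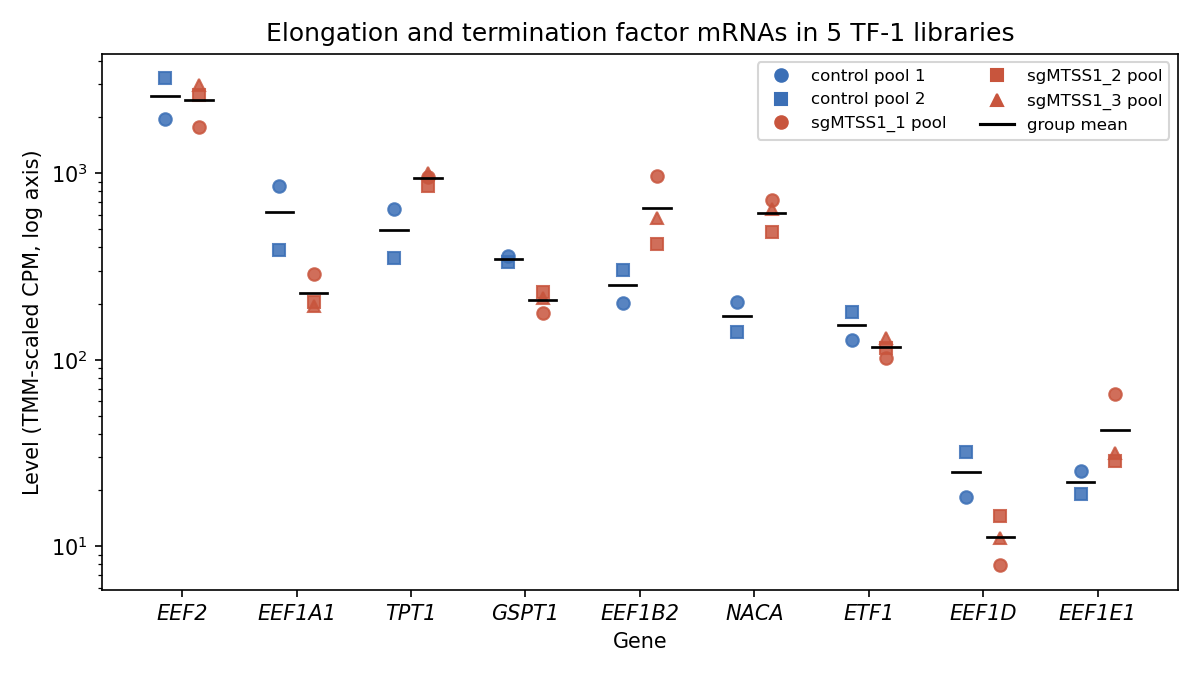
Level of each mRNA in each library, in TMM-scaled CPM on a log axis, with control pools in blue, knockout pools in red, and black bars for the group means (n = 2 and 3). The 3 knockout pools lie above both control pools for *NACA*, *TPT1*, *EEF1B2*, and *EEF1E1*, and below both for *EEF1A1*, *GSPT1*, and *EEF1D*.

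*EEF1A1* (ENSG00000156508, chromosome 6, 73489308 to 73525587, minus strand), the main gene of eEF1A, was at 850.1 and 388 CPM for control 1 and 2, and at 289.9, 203, and 195 CPM across sgMTSS1_1 to sgMTSS1_3. The groups did not overlap, but control pool 1 stood far above control pool 2. The means were 619 ± 327 CPM (SD, n = 2) and 229 ± 52.6 CPM (SD, n = 3), so that the log2-fold change was −1.43 (SE, for standard error, 0.39, 95% interval −2.30 to −0.56, adjusted p = 0.0632). The difference did not pass the test here, but did so in 4 of 16 alternatives, among them DESeq2 (adjusted p = 0.0102) and scaling by library size alone (0.0320), over a range of adjusted p-values from 0.0102 to 0.242. Without control pool 1 the log2-fold change was −0.75, and without control pool 2 it was −1.86 (adjusted p = 0.0157).

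*EEF1B2* (ENSG00000114942, chromosome 2, 206159585 to 206162928, plus strand) encodes the nucleotide exchange subunit eEF1B alpha. Its level was 200.4 and 303 CPM for control 1 and 2, and 965, 418, and 575 CPM across sgMTSS1_1 to sgMTSS1_3. All knockout pools were above both control pools, with the sgMTSS1_1 pool highest. Means were 252 ± 72.6 CPM (SD, n = 2) and 652 ± 282 CPM (SD, n = 3), and the log2-fold change was 1.37 (SE 0.43, 95% interval 0.41 to 2.33, adjusted p = 0.0948). *EEF1B2* passed both thresholds with DESeq2 (adjusted p = 0.0255) and without the filter on low counts (0.0242), whereas the highest adjusted p-value of the 16 alternatives was 0.228.

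*EEF1D* (ENSG00000104529, chromosome 8, 143579697 to 143599541, minus strand) encodes eEF1B delta, a further exchange subunit. It had few counts, namely 59 and 107 for control 1 and 2, and 61, 80, and 64 across sgMTSS1_1 to sgMTSS1_3. The corresponding levels were 18.4 and 31.9 CPM in the control and 7.91, 14.4, and 11.1 CPM in the knockout pools, and the groups did not overlap. The log2-fold change was −1.18 (SE 0.39, adjusted p = 0.109), and only without control pool 1, among the 16 alternatives, was *EEF1D* called lower (−1.51, adjusted p = 0.0460), whereas it was at −0.70 without control pool 2. Whether reads were counted by strand is not given in the sources used here, so reads of *EEF1D* and of *TIGD5*, which shares 261 exonic bases with it on the opposite strand, may not be told apart. The same holds for *EEF1A1* and *MTO1*, which share 119 exonic bases, and the log2-fold changes of *TIGD5* and *MTO1* were −0.27 (adjusted p = 0.717) and −0.46 (adjusted p = 0.514).

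*EEF1E1* (ENSG00000124802, chromosome 6, 8073360 to 8102559, minus strand) encodes AIMP3, which resembles eEF1B gamma in part and sits in the complex of aminoacyl-tRNA synthetases. Its level was 25.3 and 19.1 CPM for control 1 and 2, and 65.8, 28.7, and 31.7 CPM across sgMTSS1_1 to sgMTSS1_3. The groups did not overlap, yet 2 of the knockout pools were close to control pool 1. The log2-fold change was 0.92 (SE 0.42, 95% interval −0.02 to 1.87, adjusted p = 0.225), and without the sgMTSS1_1 pool it was 0.43.

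**Figure D2:**
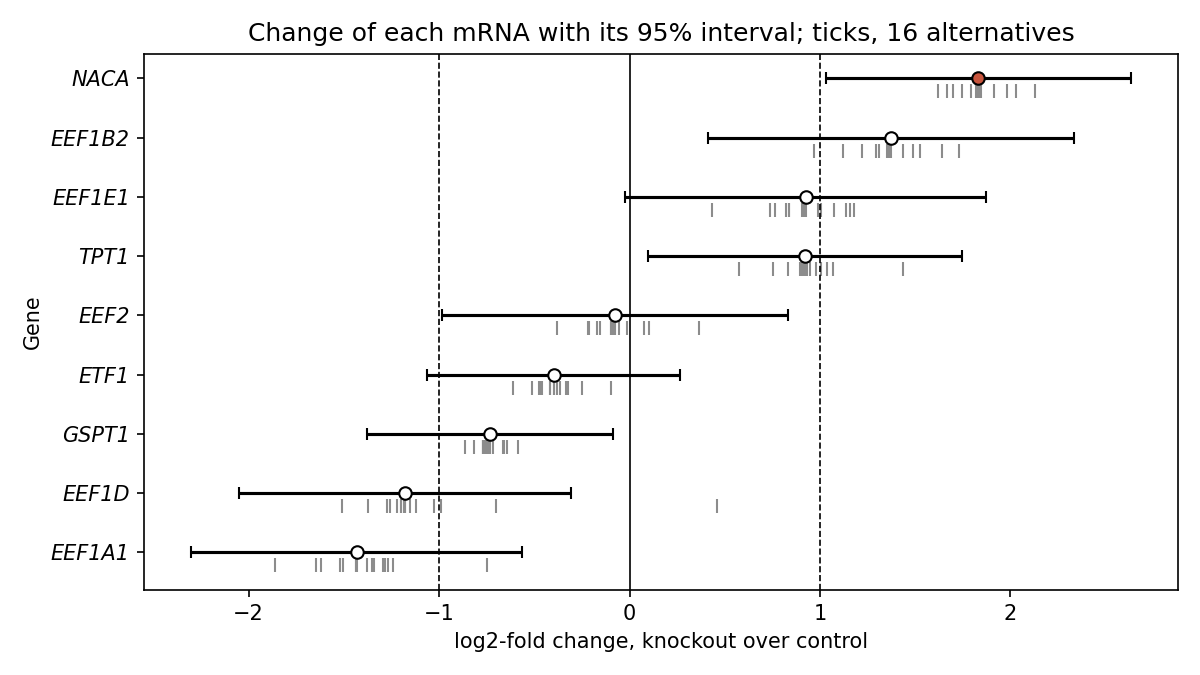
The log2-fold change of each mRNA, knockout over control, with its 95% interval (circle and bar), and its value under each of 16 alternative settings (grey ticks). The filled circle marks *NACA*, the 1 gene that was differentially expressed, and dashed lines mark −1 and 1. A single tick of *EEF1D*, at 0.46, lies on the other side of 0.

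Several of these genes have processed pseudogenes, copies of the spliced mRNA elsewhere in the genome, and reads with more than 1 mapping place were discarded before counting. Over the canonical transcript of *EEF1A1*, which is 3510 bases long, 47.3% of all windows of 50 bases, the read length, had an exact copy outside the gene. Over the last 500 bases this share ranged from 0% to 100% between 7 distinct final stretches of its annotated protein-coding transcripts. These stretches can share an end, and incomplete transcripts were not removed. The part of the *EEF1A1* mRNA that is counted thus depends on which transcripts the cells use, which was not measured. For *EEF1B2* the share was 69.0% over the transcript and 47.0% to 88.2% over the last 500 bases. It was 6.32% for *EEF1D*, 11.7% for *ETF1*, 2.32% for *NACA*, 2.22% for *TPT1*, 1.81% for *EEF1E1*, and 0.127% for *GSPT1*, and no window of *EEF2* had a copy. Over the last 500 bases of the annotated transcripts the highest share was 32.6% for *NACA*, 19.5% for *EEF1D*, 19.3% for *TPT1*, and 16.4% for *ETF1*. At the 3′ end of the canonical transcript the share was 0% for *EEF1A1*, 88.2% for *EEF1B2*, and 32.6% for *NACA*. The levels of *EEF1A1*, *EEF1B2*, and *NACA* are therefore uncertain, and a level of one gene cannot be set against that of another without this limit. Of the copied windows of the canonical transcript, 1361 of 1638 for *EEF1A1* had a copy in a pseudogene named after the gene. The same held for 523 of 523 for *EEF1B2*, 152 of 426 for *ETF1*, and 4 of 147 for *NACA*. Sums with pseudogenes, given below, do not cover the other copies.

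Counts assigned to pseudogenes differed between the families. In the *EEF1D* family, pseudogenes took 50.4% and 60.1% of the counts of gene and pseudogenes together for control 1 and 2, and 88.0%, 82.9%, and 87.7% across sgMTSS1_1 to sgMTSS1_3. *EEF1DP1* alone was at 12.8 and 41.4 CPM in the control and at 46.3, 49.5, and 63.7 CPM in the knockout pools (log2-fold change 0.97, adjusted p = 0.242). *EEF1DP7* had a log2-fold change of 1.46 (adjusted p = 0.0794). *EEF1DP1* was at 0.37 (adjusted p = 0.508) without control pool 1, and was called at 2.08 (0.0217) without control pool 2, whereas *EEF1DP7* passed with DESeq2 (0.0478) and without the filter on low counts (0.0364). Gene and pseudogenes together had a log2-fold change of 0.46 (adjusted p = 0.496), with levels of 37.2 and 79.9 CPM in the control and 66.0, 84.7, and 90.6 CPM in the knockout pools. The direction for *EEF1D* thus turned when its pseudogenes were added, and the lower level of the gene alone is no measure of the family.

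For *EEF1A1*, by contrast, the pseudogenes took a similar share in all libraries, from 20.9% to 29.6%, and those with at least 100 counts lay on the same side as the gene. *EEF1A1P5*, the pseudogene with the most counts, was at 175 and 86.4 CPM for control 1 and 2, and at 91.1, 41.2, and 32.2 CPM across sgMTSS1_1 to sgMTSS1_3. Its groups overlapped, and its log2-fold change was −1.25 (adjusted p = 0.151). The log2-fold changes of the other 3 with at least 100 counts in total were −2.01 for *EEF1A1P9*, −0.88 for *EEF1A1P11*, and −0.88 for *EEF1A1P6*, with adjusted p-values of 0.0635, 0.371, and 0.332. *EEF1A1P9* was called lower in 5 of 15 alternatives, among them DESeq2 (adjusted p = 0.0185), and was at −2.58 without control pool 2. Without control pool 1, *EEF1A1P5* was at −0.64, *EEF1A1P9* at −0.97, and *EEF1A1P6* at −0.31, and without control pool 2 *EEF1A1P11* was at −0.40. With its 33 pseudogenes added, *EEF1A1* was at 1094 and 513 CPM in the control and at 412, 269, and 247 CPM in the knockout pools. *EEF1B2P3* (log2-fold change 0.44, adjusted p = 0.554) and *EEF1B2P2* (2.34, adjusted p = 0.115) were on the same side as *EEF1B2*, whose pseudogenes took 2.62% to 5.60% of the counts.

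**Figure D3:**
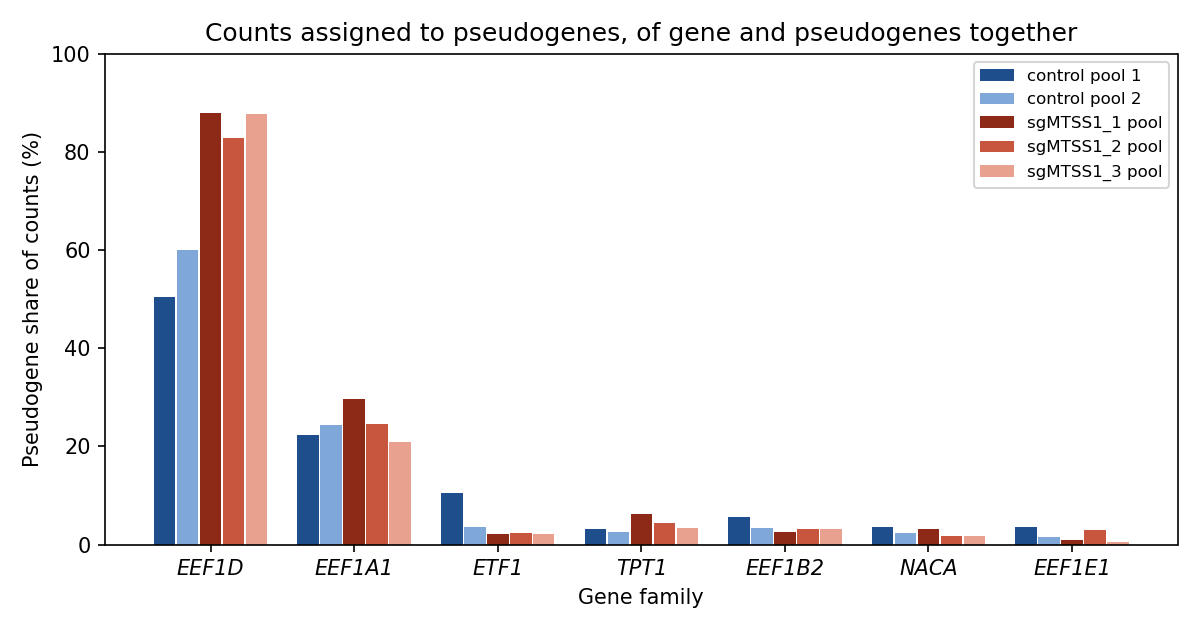
Share of counts assigned to pseudogenes named after a gene, in percent of the counts of the gene and those pseudogenes together, for 7 gene families and each of the 5 libraries. In the *EEF1D* family the share is 50.4% and 60.1% in the control pools and 82.9% to 88.0% in the knockout pools, and in the *EEF1A1* family it lies between 20.9% and 29.6% in all libraries.

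*EEF2* (ENSG00000167658, chromosome 19, 3976056 to 3985463, minus strand), which encodes the translocase eEF2, had the highest level of the 9 genes. It was at 1950.4 and 3227 CPM for control 1 and 2, and at 1772, 2619.5, and 2984 CPM across sgMTSS1_1 to sgMTSS1_3. The pools of the groups were intermingled, and the log2-fold change was −0.07 (SE 0.41, adjusted p = 0.935). Its 95% interval, −0.98 to 0.83, still includes changes of almost 1 on the log2 scale in either direction. No pseudogene is annotated for *EEF2*, so the limit given for *EEF1A1* does not apply here.

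*ETF1* (ENSG00000120705, chromosome 5, 138506095 to 138543236, minus strand), whose product eRF1 reads the stop codons, was at 127 and 179.7 CPM for control 1 and 2, and at 102, 116, and 131 CPM across sgMTSS1_1 to sgMTSS1_3. The sgMTSS1_3 pool lay between the control pools, and the log2-fold change was −0.40 (SE 0.30, 95% interval −1.06 to 0.27, adjusted p = 0.458), and −0.10 without control pool 2. With its 3 pseudogenes added, the groups no longer overlapped, and the log2-fold change was −0.46 (adjusted p = 0.374). *GSPT1* (ENSG00000103342, chromosome 16, 11868128 to 11916082, minus strand), which encodes the GTPase partner eRF3a, was at 359 and 332 CPM in the control and at 178, 231, and 215 CPM in the knockout pools. *GSPT1* had the smallest spread relative to its level in the control group, with means of 346 ± 18.9 CPM (SD, n = 2) and 208 ± 27.1 CPM (SD, n = 3). The knockout pools were all lower, but the log2-fold change of −0.73 (SE 0.29, adjusted p = 0.166) did not pass the test, and it stayed between −0.86 and −0.58 over the 16 alternatives. *COX6CP1*, a processed pseudogene that lies within *GSPT1* and shares no exonic base with it, was higher in the knockout (log2-fold change 3.85, adjusted p = 0.0234). The log2-fold change of *COX6CP1* was 2.99 (adjusted p = 0.0606) without the sgMTSS1_1 pool, 3.44 (0.0650) without control pool 2, and 3.61 (0.0704) with limma-voom.

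*NACA* (ENSG00000196531, chromosome 12, 56712305 to 56731628, minus strand) was at 203 and 141 CPM for control 1 and 2, and at 715, 482, and 643 CPM across sgMTSS1_1 to sgMTSS1_3. Even the lowest knockout pool was more than double the highest control pool. The means were 172 ± 43.8 CPM (SD, n = 2) and 613 ± 119 CPM (SD, n = 3), and the log2-fold change was 1.83 (SE 0.36, 95% interval 1.03 to 2.63, adjusted p = 0.0234). Over the 16 alternatives the log2-fold change ranged from 1.62 to 2.13 and the adjusted p-value from 1.8e-05 to 0.0801. Without the sgMTSS1_1 or the sgMTSS1_3 pool the gene did not pass the test (adjusted p = 0.0769 and 0.0801). With all libraries thinned to the smallest total it did (1.84, adjusted p = 0.0211).

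Of the genes and pseudogenes that could share reads with *NACA*, the 3 with at least 100 counts lay on the same side. *NACAP2*, with 40 counts in total and named after its values were seen, lay on the other, with 19 and 9 counts in the control against 7, 5, and 0 in the knockout pools. *NACAP8* had 4 and 1 counts in the control against 155, 41, and 58 in the knockout pools (log2-fold change 4.00, adjusted p = 0.0209), but did not pass without control pool 2 (0.0510), without the sgMTSS1_1 pool (0.0736), or with limma-voom (0.0664). *NACA2*, an intronless gene for a similar protein, had 6 and 1 counts in the control against 96, 28, and 42 in the knockout pools (2.93, adjusted p = 0.0530). It passed in 6 of 15 alternatives, among them DESeq2 (adjusted p = 0.00681), and was at 4.72 (0.0308) without control pool 1 and at 2.17 (0.116) without control pool 2. Pseudogenes took 1.65% to 3.56% of the counts of the *NACA* family, so that with them added the levels were 211 and 145 CPM in the control and 738, 491, and 654 CPM in the knockout pools. These sums leave out the places of most copied windows of *NACA*, as given above. *PRIM1*, which encodes the small primase subunit and shares 139 exonic bases with *NACA* on the same strand, was also higher (log2-fold change 2.56, adjusted p = 0.0385). It had 27 and 11 counts in the control against 439, 137, and 123 in the knockout pools, far fewer than *NACA*, and did not pass when any 1 of the libraries other than control pool 1 was left out (adjusted p = 0.0530 to 0.110) or with limma-voom (0.0515). *BTF3*, which encodes the beta subunit that pairs with the *NACA* product and is named after its value was seen, lay on the other side, at 344 and 171 CPM in the control and 128, 147, and 156 CPM in the knockout pools (−0.84, adjusted p = 0.179). It was at −0.25 (adjusted p = 0.623) without control pool 1, and was called at −1.23 (0.0403) without control pool 2.

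*TPT1* (ENSG00000133112, chromosome 13, 45333471 to 45341284, minus strand) was at 641 and 349.6 CPM for control 1 and 2, and at 956, 855, and 1000.2 CPM across sgMTSS1_1 to sgMTSS1_3. The knockout pools were close to each other, at 937 ± 74.3 CPM (SD, n = 3), whereas the control pools were far apart, at 495 ± 206 CPM (SD, n = 2). The log2-fold change was 0.92 (SE 0.37, 95% interval 0.10 to 1.74, adjusted p = 0.170). It was 1.43 without control pool 1, where *TPT1* passed the test (adjusted p = 0.0379), and 0.58 without control pool 2. *TPT1P5* had 6 and 13 counts in the control against 399, 184, and 161 in the knockout pools, which made it differentially expressed (log2-fold change 3.70, adjusted p = 0.00799, at most 0.0386 over 14 alternatives). *TPT1P8*, with 86 counts in total and named after its values were seen, did not rise in this way. It had 37 and 10 counts in the control against 13, 12, and 14 in the deeper knockout libraries. The pseudogenes together took 2.49% to 6.17% of the counts of the *TPT1* family.

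To compare the *EEF1A1* mRNA with mRNAs of eEF1B subunits within a library, where the scaling cancels, the level of *EEF1A1* was divided by the sum of *EEF1B2* and *EEF1D*. The ratio was 3.88 and 1.16 for control 1 and 2, and 0.298, 0.470, and 0.333 across sgMTSS1_1 to sgMTSS1_3. The knockout ratios were all smaller than the control ratios, by a difference of −2.56 on the log2 scale. A two-sided exact permutation test gave p = 0.1, the smallest value that 10 splits of 5 libraries can give. Since *EEF1A1* was below and *EEF1B2* above in all knockout pools, this separation was fixed by values already given and adds no support. The limit from exact copies outside the gene, given above for *EEF1A1* and *EEF1B2*, also applies to the ratio. The difference was −2.51 with the pseudogenes added, −1.69 without control pool 1, and −3.43 without control pool 2. Summed over the 9 genes, the levels were 4375 and 4972 CPM in the control and 5052, 4968, and 5786 CPM in the knockout pools, and overlapped (log2 difference 0.17, p = 0.3 from the same exact permutation test). The 9 genes took between 0.440% and 0.573% of all counts.

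A total of 67 other genes of elongation, termination, nascent chain handling, and mitochondrial translation were listed in 5 groups, of which 65 were analysed and 62 tested. Of these 62 genes, 2 (3.23%) were called higher and 1 (1.61%) was called lower, near the 4.17% and 1.01% of all tested genes, and the median log2-fold change was 0.05. *DPH7*, whose product acts in the synthesis of diphthamide, the modified histidine of eEF2, was at 10.3 and 3.87 CPM in the control and at 45.4, 59.4, and 68.4 CPM in the knockout pools. Its log2-fold change of 3.02 (SE 0.46, adjusted p = 0.0115) was past both thresholds in all 16 alternatives. *MARS1*, the methionyl-tRNA synthetase, rose from 33.5 and 33.4 CPM to 122, 76.7, and 87.0 CPM (1.51, adjusted p = 0.0328), but overlaps *ARHGAP9* and *DDIT3* on the opposite strand. *ZNF598*, a ubiquitin ligase that marks collided ribosomes, fell from 10.01 and 6.26 CPM to 2.08, 1.81, and 2.44 CPM (−1.94, adjusted p = 0.0456). *MARS1* did not pass without control pool 2 or any 1 of the knockout pools (adjusted p = 0.0540 to 0.0934), and *ZNF598* did not pass without control pool 1 or any 1 of the knockout pools (0.117 to 0.126) or with limma-voom (0.0505). DESeq2 called 4 of the 62 higher (6.45%, against 7.02% of all tested genes) and 2 lower (3.23%, against 2.31%), and limma-voom called 2 higher (3.23%, against 3.54%) and 0 lower (0.862% of all tested genes).

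Among 15 other tested elongation factors and their modifiers, *DPH7* was called higher and 0 were called lower by edgeR (3 higher and 2 lower at an unadjusted p-value under 0.05), although DESeq2 called 2 higher and 1 lower, and the median log2-fold change was −0.07. *EIF5A*, the hypusine-bearing factor that helps at difficult peptide bonds, was at 1.37 (adjusted p = 0.0513), was called in 4 of 16 alternatives, among them DESeq2 (0.0111) and without control pool 1 (0.0279), and overlaps *GPS2* on the opposite strand. Of 14 tested termination, recycling, and rescue factors, *ZNF598* (7.14%) was called lower and 0 higher by edgeR and DESeq2 alike, and the median was −0.22. At an unadjusted p-value under 0.05, 3 were higher (21.4%) and 1 lower (7.14%). *N6AMT1*, the methyltransferase of eRF1, was at 1.27 (adjusted p = 0.134), with 0.80 without control pool 1 and 2.03 without control pool 2.

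Of 13 tested nascent chain factors, 0 were called by edgeR, and DESeq2 called 1 higher (7.69%, against 7.02% of all tested genes). At an unadjusted p-value under 0.05, 2 were higher (15.4%) and 1 lower (7.69%), against 14.1% and 9.23% of all tested genes. Of these 13, 11 had a positive log2-fold change (84.6%, against 48.3% of all tested genes), and the median was 0.44. That share was 77.8% for the mitochondrial list, 46.7% for elongation, 36.4% for synthetase partners, and 35.7% for termination. The largest values of the nascent chain factors were those of *NACA2* and of *ZFAND2B* (0.93, adjusted p = 0.142). Among 11 partners of eEF1 and of the synthetase complex, *MARS1* (9.09%) was called higher and 0 lower by edgeR and DESeq2, and the median was −0.19. At an unadjusted p-value under 0.05, 1 was higher (9.09%) and 2 were lower (18.2%). *AIMP2*, a scaffold protein of the synthetase complex in which the *EEF1E1* product sits, was at −1.65 (adjusted p = 0.0956) and overlaps *EIF2AK1* on the opposite strand. Of 9 tested mitochondrial factors, 0 were called by edgeR or DESeq2, with a median of 0.29. At an unadjusted p-value under 0.05, 1 was higher (11.1%) and 0 were lower. *MTRES1*, a rescue factor of stalled mitochondrial ribosomes, was at 1.20 (adjusted p = 0.101) and *MTRF1*, a mitochondrial release factor, at 0.83 (adjusted p = 0.241).

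**Figure D4:**
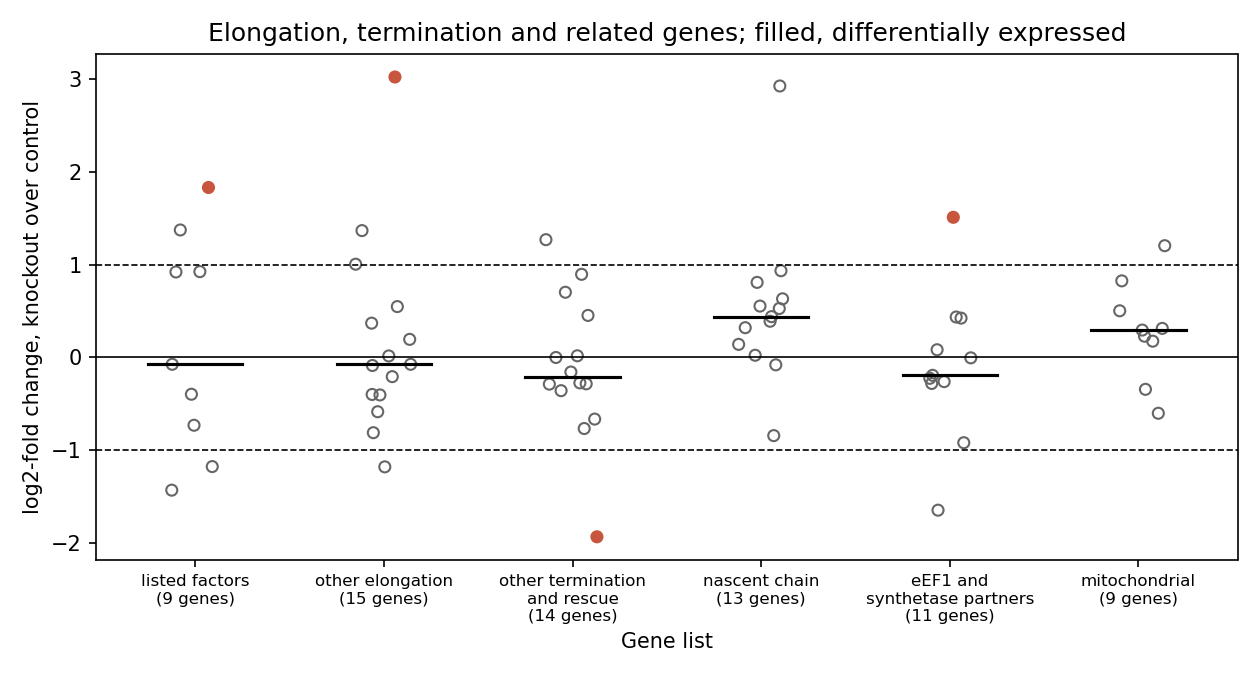
The log2-fold change, knockout over control, of the 9 listed factors and of 62 other tested genes in 5 lists, with black bars for the medians and filled points for differentially expressed genes. The medians lie between −0.22 and 0.44, and the filled points are *NACA*, *DPH7*, *ZNF598*, and *MARS1*.

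The 5 genes whose starts are printed above with a 5′ TOP did not share a direction. *NACA* was called higher, *EEF1B2* (log2-fold change 1.37) and *TPT1* (0.92) were higher without passing the test, *EEF2* was at −0.07, and *EEF1A1* at −1.43. The 3 without a tract were *EEF1E1* (0.92), *ETF1* (−0.40), and *GSPT1* (−0.73). Among all tested genes, 754 had at least 1 listed start with the tract, a class chosen after the data were seen. Of these, 42 (5.57%) were called higher and 5 (0.663%) lower, against 4.17% and 1.01% of all tested genes, with a median of 0.10. DESeq2 called 10.3% higher and 2.39% lower (7.02% and 2.31% of all tested genes). With limma-voom the shares were 5.84% and 0.928% (3.54% and 0.862% of all tested genes). At an unadjusted p-value under 0.05 they were 19.0% and 8.89% (14.1% and 9.23% of all tested genes). The class holds many genes of cytosolic ribosomal proteins. Of 83 tested genes of these proteins, with or without the tract, 14 (16.9%) were called higher and 0 lower, with a median of 0.86. DESeq2 called 38.6% of them higher. Their part in the shares of the class was not tested. A match describes the letters at a listed start, and which start TF-1 cells use was not measured.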

How the data were processed

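RNA was taken from pools of TF-1 clones, and libraries were made with the QuantSeq 3′ mRNA-Seq FWD kit. The authors trimmed 50-base single-end reads with BBDuk, aligned them to GRCh38 with HISAT2 2.1.0, removed non-uniquely mapped reads with SAMtools 1.10, and deposited raw counts per Ensembl gene. The counting program, annotation release, use of strand, and handling of duplicates are not given in the sources used here. Genes were named by GENCODE 44 on GRCh38.

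Counts were filtered with filterByExpr (minimum count 10), scaled by TMM, and tested with edgeR 4.0.16 (quasi-likelihood, condition alone, 5 libraries, R 4.3.3), with Benjamini-Hochberg adjustment over 14391 genes. Unless another tool is named, adjusted p-values are from this test, and standard errors derive from its F statistic. P-values measure the spread between pools. Per the study's methods, a further control pool and a pool made with another *MTSS1* sgRNA were left out because they lay far from the centre of their group in a principal component analysis, so this is the spread of the pools that were kept. Total counts of 2849979 to 8854899 set the counting error, and floors cover counting error only. Alternatives were DESeq2 1.42.0, limma-voom (limma 3.58.1), robust estimation, other scalings, filters, and thresholds, thinned libraries, a replicate block, pseudogene counts added to their gene, and each library left out. The script was tested on simulated data.

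The genes and lists were chosen with earlier results of these data known. Named genes are the listed factors, *MTSS1*, pseudogenes named after a factor with at least 100 counts, overlapping genes, list genes that were called, and the 2 largest changes per list. *EEF1G* was planned for the ratio but not analysed here. Windows of 50 bases were matched exactly to the main chromosomes of GRCh38. The values of 1 marker of another cell type are not reported here.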

Additional observations from a re-analysis of the deposited data

How the results depend on the processing

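Over 16 alternatives of the fit, 130 of 144 values of the 9 genes kept their direction and their side of the thresholds, 8 passed in addition, 2 no longer passed, and 4 changed sign. The sign changed for *EEF1D* with its pseudogenes added (0.46), where the added counts are the cause, and for *EEF2* without the filter on low counts (0.076), without control pool 2 (0.36), and without the sgMTSS1_1 pool (0.10), where the cause was not tested. *EEF2* was at −0.38 without control pool 1. *MTSS1* turned to 0.16 without control pool 1 and was at −1.04 without control pool 2.

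Of the 9 genes, 2 were called higher with DESeq2, with no filter, and at an adjusted p-value under 0.1, and 0 to 2 with a library left out. Called lower were 1 with DESeq2, library size alone, no filter, and an adjusted p-value under 0.1, and 0 to 1 with a library left out. Of the 62 list genes, the number higher was 4 with DESeq2, 5 with no filter, 4 at 0.1, and 1 to 5 with a library left out. The number lower was 2 with DESeq2, 0 with limma-voom and with the replicate block, 3 at 0.1, and 0 to 2 with a library left out.

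Over all tested genes, 600 were higher and 145 lower. DESeq2 gave 1010 and 333, and a threshold of 0.1 gave 1090 and 441. No filter gave 1173 higher, library size alone gave 232 lower, and leaving out a library gave 107 to 917 higher and 4 to 432 lower, the fewest without the sgMTSS1_1 pool. The median log2-fold change of all genes was −0.03, and −0.17 with library size alone. The summed level of the 9 genes differed by 0.038 with library size alone and by 0.08 to 0.26 with a library left out, and the ratio of *EEF1A1* to the eEF1B mRNAs by −3.43 to −1.69. With 1 control library left, that library is assumed to vary like the knockout pools.

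The numbers 1 and 2 are used for pools of either group, and deviations of same-numbered pools correlated with r = 0.196 and 0.108, which with a pair of numbers does not pair the samples. The sgMTSS1_3 pool has no control pool with its number, so with the number as a replicate block it adds nothing to the difference. In that fit, which is no check of the calls, 894 genes were higher and 200 lower. *NACA* was called (1.79, adjusted p = 0.00825 from edgeR with the block), and 0 of the 9 genes were lower. *ZNF598* was not called (adjusted p = 0.0616).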
